A study of Saccharomyces cerevisiae with 44 samples.

Results

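The regions described here are the replication origins on the arms of chromosome XV of Saccharomyces cerevisiae. The arms were taken as the 50-bp bins more than 25 kb from the centromere, which lies between PHO80 and RRP6, and more than 20 kb from either chromosome end. They hold 20026 of the 241434 bins of the nuclear genome. An origin was a position where the average of the 20 BrdU-IP profiles, smoothed over 1 kb, reached at least 2 times the genome-wide mean and was the highest within 5 kb on either side. By this rule 10 of the 164 origins kept across the genome lie on the arms of chromosome XV, and 2 further origins of the chromosome lie within 25 kb of the centromere.

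In budding yeast, an origin is licensed in G1 phase by loading of the MCM helicase and is activated in S phase by the Cdc7 kinase with its regulatory subunit Dbf4. Dbf4 is limiting for initiation, so origins that recruit it early fire early. The forkhead transcription factors Fkh1 and Fkh2 are thought to recruit Dbf4 to a subset of origins along chromosome arms. The kinetochore protein Ctf19 is thought to bring it to kinetochores, from where it stimulates origins near centromeres. Cells released from G1 into hydroxyurea, which starves forks of nucleotides, replicate mainly around their early origins, and the thymidine analog BrdU marks the DNA made there.

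The 10 strains used for BrdU labelling are of the W303 background, lack the Bar1 protease and carry a BrdU-incorporation cassette, placed at leu2 in WT, the dbf4-Zn* and the fkh1∆ dbf4-Zn* strains and at ura3 in the others, where it cannot be told apart from the genotype. The 9 mutants are dbf4∆C, which lacks the C-terminal end of Dbf4, dbf4-Zn*1 (C661A C664A) and dbf4-Zn*2 (H680C), which carry point changes in its C-terminal zinc finger, ctf19∆, which lacks the kinetochore protein, fkh1∆ fkh2-dsm, the triple mutant ctf19∆ fkh1∆ fkh2-dsm, and fkh1∆ alone or combined with either zinc finger allele as fkh1∆ dbf4-Zn*1 or fkh1∆ dbf4-Zn*2. They are compared with WT. The fkh2-dsm allele removes the origin function of Fkh2 while sparing its other roles. Cells were grown at 23 °C, held in G1 with α-factor and released into BrdU and 200 mM hydroxyurea for 60 min according to the labels, whereas the study's methods state a longer release for dbf4∆C. Each strain has 2 BrdU-IP libraries, here called IP, and 2 Total libraries of the unselected DNA. A further 4 ChIP-seq libraries are of FLAG-dbf4-aaHH, the tagged Zn*1 protein, and FLAG-Dbf4, 2 each, from W303 cells arrested in G1 that carry ADE2::FLOPv2x2 and are not given a BrdU cassette. The labels and the study's text pair the strain numbers EAy1 and EAy2 with these proteins in opposite ways. The proteins named in the labels are used here, and the sign of every ChIP-seq difference rests on them.

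The sum of counts over all bins was 281531 to 13959837 in the IP libraries, 435781 to 33840380 in the Total libraries and 3806024 to 4298230 in the ChIP libraries. The fkh1∆ fkh2-dsm libraries were the shallowest, and the median arm origin window held 44 counts in the smaller of its 2 IP libraries, against 3116 in WT replicate 1. Signal is given as a window's mean count per bin divided by the mean of all bins of that library, so 1 is the genome-wide mean. IP windows are 500 bp wide, Total windows 2 kb. Such values are shares of a library, and in the 9 mutants the median log2 fold change over all 164 origins was between -2.64 (dbf4∆C) and -0.60 (fkh1∆). Changes at single origins are therefore also given relative to that median. TMM factors computed over the origins moved the median by 0.58 to 2.42 on the log2 scale and DESeq2 size factors by 0.82 to 2.72, and the numbers called under both are given with the IP comparisons. Another alternative took the Total signal of each window as an offset. Copied DNA also counts more in Total, so this offset takes out part of a change in replication. With the sum of the matching Total library as library size, ARS1529.5 in fkh1∆ fkh2-dsm (log2 fold change -6.70, adjusted p = 0.0430) was the sole arm origin called in any comparison. The ratio of IP to Total sums behind that scaling ran from 0.0447 to 1.15 over the 20 pairs and differed between replicates, with 0.604 and 0.0951 in WT. Replicates are not stated to be separate cultures, so the p-values measure only the spread between these libraries.

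Of the 10 arm origins, 5 lie on the left arm and 5 on the right. Positions are those of the files, and gene names are from the R64 gene table, whose coordinates matched the empty stretches at FKH1 in fkh1∆ and at CTF19 in ctf19∆ to within 35 bp. ARS1506.5 was highest at 35.9 kb (XV 35601 to 36100), between ZPS1 and YOL153C. ARS1509 at 113.6 kb (XV 113301 to 113800) lies between YOL107W and the noncoding RNA gene YNCO0002W. The origin at 166.9 kb (XV 166651 to 167150) lies inside ATG34, which encodes a receptor of selective autophagy, and carries no name in the study's panels. The origin at 227.7 kb (XV 227451 to 227950), between the noncoding RNA genes YNCO0004C and YNCO0005W, also carries none. ARS1511 at 277.9 kb (XV 277651 to 278150) was highest 131 bp from IFM1, the gene of mitochondrial translation initiation factor 2, and its window runs into that gene. It is the arm origin closest to the centromere, at 48.7 kb.

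On the right arm, ARS1513.5 at 436.9 kb (XV 436651 to 437150) lies 580 bp from ASE1, which encodes a microtubule bundling protein. The origin at 463.5 kb (XV 463201 to 463700) lies between YOR072W and the tRNA gene SUF11. The origin at 490.0 kb (XV 489701 to 490200) lies between YVC1, the gene of a vacuolar cation channel, and VPS21, the gene of an endosomal Rab GTPase, and its window overlaps both. The origin at 907.9 kb (XV 907651 to 908150) lies in the small reading frame YOR316C-A, between the vacuolar metal transporter gene COT1 and the fatty acyl-CoA synthetase gene FAA1. ARS1529.5 at 1053.4 kb (XV 1053101 to 1053600) lies between RDR1, which encodes a repressor of drug transporter genes, and FRE3, which encodes a siderophore reductase. The last of the closely spaced origins, at 490.0 kb, and the next one, at 907.9 kb, are 417.9 kb apart, the widest distance between neighbours on these arms.

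Because the average profile chose these origins, their heights in it are a description. The highest was ARS1511 at 13.1 times the genome-wide mean and the lowest was the 490.0-kb origin at 2.07, just inside the minimum of 2. The highest arm peak just outside it, at 982.1 kb, reached 1.76. The 490.0-kb origin had a mean IP signal of 4.65 in WT, above that of every mutant, and WT is part of the average. Tests that use WT are therefore not independent of the choice of this origin. Across the arms of WT cells, ARS1511 had the highest IP signal, 22.4 and 29.2 in the 2 libraries. ARS1513.5 followed with 18.0 and 19.2, and ARS1529.5 with 16.8 and 20.0, and the ranges of these 2 origins overlapped. The levels of the 227.7-kb (13.1 and 14.5), 166.9-kb (14.3 and 12.9) and ARS1509 (12.2 and 11.9) windows formed the next group, with overlap between the first 2 of them. ARS1506.5 had 9.09 and 11.3 in the WT libraries. The 3 remaining unnamed origins of the right arm were lower, with 6.88 and 7.70 at 463.5 kb, 6.06 and 4.84 at 907.9 kb and 4.59 and 4.72 at 490.0 kb, and the last 2 overlapped neither with the 463.5-kb origin nor with each other.

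**Figure D1:**
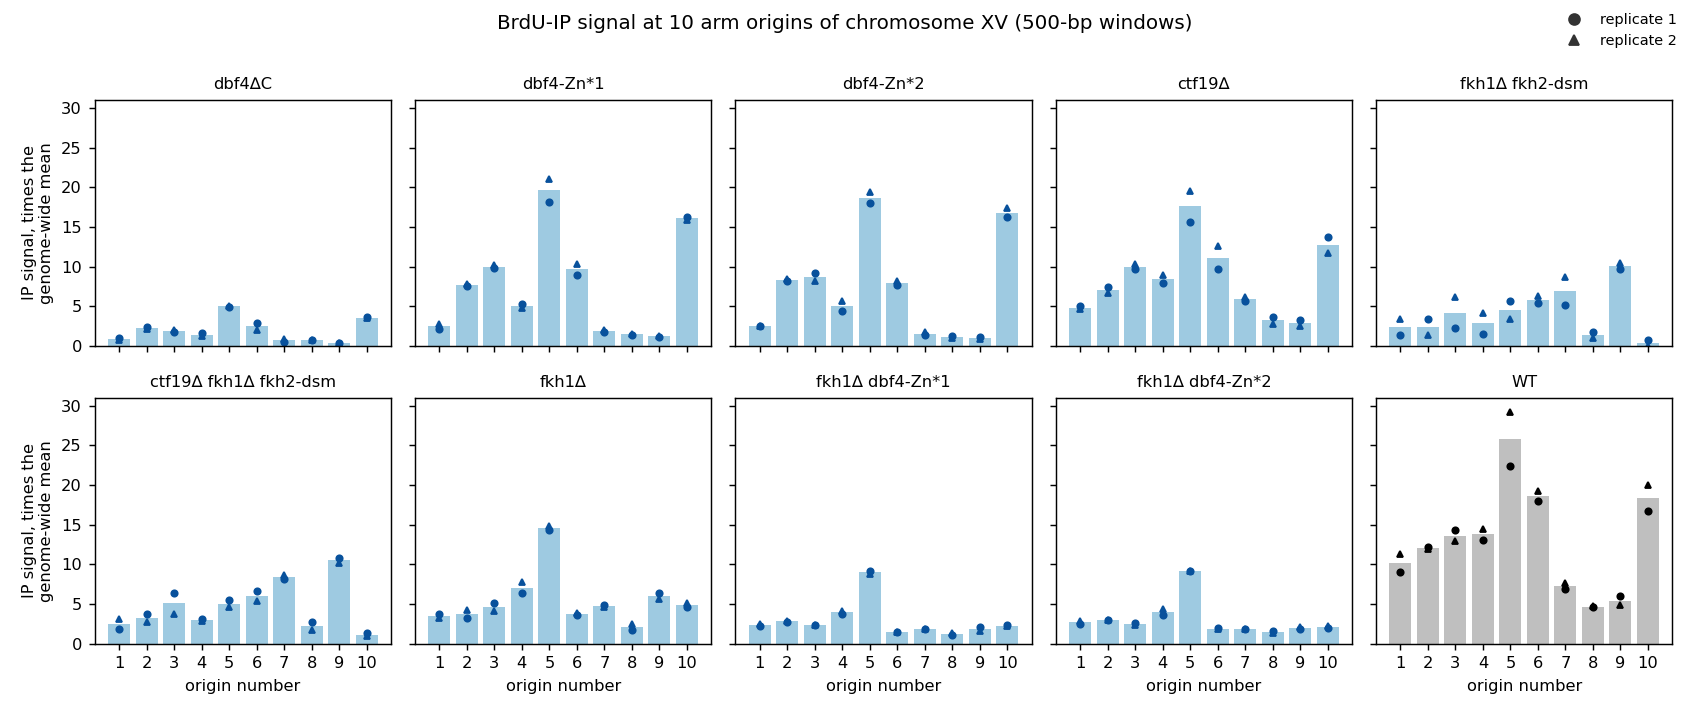
IP signal at the 10 arm origins in each strain, in multiples of the genome-wide mean (y axis), with the origins numbered from the left end of the chromosome (x axis, 1 for ARS1506.5 to 10 for ARS1529.5). Bars are means of 2 libraries and the points are the libraries. Origin 5 (ARS1511) is the highest in every library except the 4 of fkh1∆ fkh2-dsm and ctf19∆ fkh1∆ fkh2-dsm, where origin 9 (907.9 kb) is.

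In dbf4∆C cells, every arm origin had less IP signal than in WT. 10 of 10 fell and 0 rose, where 96.3% and 1.83% of all 164 origins did so, by edgeR's quasi-likelihood test at a Benjamini-Hochberg adjusted p under 0.05. ARS1511 had 4.90 and 5.07 in dbf4∆C cells, against 22.4 and 29.2 in WT. ARS1529.5 had 3.68 and 3.48, against 16.8 and 20.0 in WT, and ARS1509 had 2.43 and 2.18, against 12.2 and 11.9 in WT. These 3 origins had the smallest falls, with log2 fold changes of -2.37 ± 0.15, -2.35 ± 0.20 and -2.39 ± 0.22 (SE). ARS1513.5 had 2.94 and 1.99, against 18.0 and 19.2 in WT (log2 fold change -2.91 ± 0.20), and ARS1506.5 had 1.04 and 0.786, against 9.09 and 11.3 in WT (-3.48 ± 0.26). The 490.0-kb origin, the lowest in WT, had 0.798 and 0.720 in dbf4∆C cells, against 4.59 and 4.72 in WT (-2.61 ± 0.28). The largest fall was at 907.9 kb, with 0.412 and 0.430 in dbf4∆C cells, against 6.06 and 4.84 in WT, a log2 fold change of -3.71 ± 0.24 (adjusted p = 7.01e-16). The libraries of the 2 strains did not overlap at any of these origins, and adjusted p-values were at most 1.34e-10. The median over the arm origins was -2.89, against -2.64 over all origins, and relative to that median the 907.9-kb origin lay at -1.07 and ARS1511 at 0.27.

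Under the other scalings the picture in dbf4∆C divided. With TMM factors 5 arm origins fell and 0 rose (39% and 25.6% of all origins), and DESeq2 gave 4 and 2 (33.5% and 37.2%). ARS1511 (0.35 ± 0.16) and ARS1529.5 (0.37 ± 0.14) were the 2 that DESeq2 placed higher. The 907.9-kb origin stayed lower under both, at -1.30 ± 0.24 with TMM factors and -0.99 ± 0.25 with DESeq2.

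The arm origins divided in the dbf4-Zn* strains, with little or no fall at ARS1511 and ARS1529.5 and falls of about 4 to 5 times at the 907.9-kb and 463.5-kb origins and ARS1506.5. In dbf4-Zn*1 cells 8 of 10 arm origins fell and 0 rose (78% and 3.05% of all origins), and in dbf4-Zn*2 cells 9 fell and 0 rose (79.9% and 3.05%). ARS1529.5 had 16.3 and 15.8 in dbf4-Zn*1 cells and 16.2 and 17.4 in dbf4-Zn*2 cells, against 16.8 and 20.0 in WT. It did not pass the test in either strain, with log2 fold changes of -0.19 ± 0.18 (adjusted p = 0.359) and -0.12 ± 0.18 (adjusted p = 0.521). ARS1511 had 18.1 and 21.1 in dbf4-Zn*1 cells and 18.0 and 19.3 in dbf4-Zn*2 cells, against 22.4 and 29.2 in WT. These log2 fold changes, -0.39 ± 0.14 and -0.46 ± 0.14, were the smallest that passed, and without WT replicate 2 they were -0.20 (adjusted p = 0.303) and -0.27 (adjusted p = 0.154). Without dbf4-Zn*1 replicate 1 the first of them was -0.28 (adjusted p = 0.166).

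At the other end, the 907.9-kb origin had 1.18 and 1.23 in dbf4-Zn*1 cells and 1.19 and 0.933 in dbf4-Zn*2 cells, against 6.06 and 4.84 in WT, the largest fall on the arms in both strains. The log2 fold changes were -2.19 ± 0.22 (adjusted p = 1.20e-10) and -2.34 ± 0.21 (adjusted p = 2.46e-11). The unnamed 463.5-kb origin had 1.76 and 1.96 in dbf4-Zn*1 cells and 1.36 and 1.75 in dbf4-Zn*2 cells, against 6.88 and 7.70 in WT (-1.97 ± 0.22 and -2.25 ± 0.22). ARS1506.5, near the left end of the chromosome, had 2.18 and 2.79 in dbf4-Zn*1 cells and 2.49 and 2.56 in dbf4-Zn*2 cells, against 9.09 and 11.3 in WT (-2.04 ± 0.24 and -2.01 ± 0.24). The 490.0-kb origin had 1.35 and 1.55 in dbf4-Zn*1 cells and 1.27 and 1.05 in dbf4-Zn*2 cells, against 4.59 and 4.72 in WT (-1.69 ± 0.27 and -1.98 ± 0.27). At these 4 origins every mutant library lay below both WT libraries, and their falls were larger than the median fall of all origins. Relative to that median the 907.9-kb origin lay at -1.10 in dbf4-Zn*1 cells and -1.16 in dbf4-Zn*2 cells, while ARS1529.5 lay at 0.91 and 1.05 on the other side of it.

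Between these ends, ARS1509 had 7.59 and 7.84 in dbf4-Zn*1 cells and 8.23 and 8.43 in dbf4-Zn*2 cells, against 12.2 and 11.9 in WT (-0.65 ± 0.20 and -0.53 ± 0.20, adjusted p = 0.00470 and 0.0168). In dbf4-Zn*2 the origin was not called without any 1 of the 4 libraries, with adjusted p-values of 0.0539 to 0.0805. ARS1513.5 had 8.97 and 10.3 in dbf4-Zn*1 cells and 7.64 and 8.12 in dbf4-Zn*2 cells, against 18.0 and 19.2 in WT (-0.95 ± 0.18 and -1.24 ± 0.18). The 166.9-kb origin in ATG34 was called lower in dbf4-Zn*2 (-0.65 ± 0.23, adjusted p = 0.00972) and missed the threshold in dbf4-Zn*1 (-0.45 ± 0.23, adjusted p = 0.0682). The difference between the alleles was not tested, and in dbf4-Zn*2 the value was -0.57 (adjusted p = 0.0813) without WT replicate 1 and -0.57 (adjusted p = 0.0717) without dbf4-Zn*2 replicate 2.

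Both other scalings shift all origins of a comparison by a near-constant amount and moved the zero point. With TMM factors dbf4-Zn*1 had 5 arm origins lower and 2 higher (40.9% and 23.8% of all origins), and dbf4-Zn*2 had 5 and 2 (42.1% and 24.4%). DESeq2 counted 3 lower and 4 higher in dbf4-Zn*1 (31.1% and 34.1%), and 4 and 4 in dbf4-Zn*2 (34.8% and 36.6%). ARS1511 and ARS1529.5 were the 2 origins that TMM factors placed higher in both strains, ARS1529.5 by 0.70 ± 0.19 in dbf4-Zn*1 cells and 0.75 ± 0.18 in dbf4-Zn*2. DESeq2 added ARS1509 and the 166.9-kb origin in both. The 907.9-kb origin stayed lower, at -1.31 ± 0.22 and -1.46 ± 0.22 with TMM factors.

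In ctf19∆ cells the arm origins had moderately less IP signal, and all 10 log2 fold changes were negative. 7 of 10 fell and 0 rose, where 70.1% and 1.83% of all origins did, and their log2 fold changes had a median of -0.64 on the arms and -0.75 over all origins. The largest fall was at ARS1506.5, with 5.05 and 4.62 in ctf19∆, against 9.09 and 11.3 in WT (-1.06 ± 0.24, adjusted p = 0.000262). ARS1511 had 15.6 and 19.6, against 22.4 and 29.2 in WT (-0.56 ± 0.15), ARS1513.5 had 9.64 and 12.6, against 18.0 and 19.2 in WT (-0.76 ± 0.19), and ARS1509 had 7.43 and 6.64, against 12.2 and 11.9 in WT (-0.77 ± 0.21). ARS1529.5 had 13.7 and 11.8, against 16.8 and 20.0 in WT (-0.51 ± 0.19, adjusted p = 0.0160). At none of these did the 2 strains overlap. Without WT replicate 2 the values of ARS1511 and ARS1529.5 were -0.37 (adjusted p = 0.0621) and -0.39 (adjusted p = 0.148). Without ctf19∆ replicate 1 ARS1511 was at -0.39 (adjusted p = 0.0595) and the 227.7-kb origin at -0.62 (adjusted p = 0.0652), and without ctf19∆ replicate 2 ARS1529.5 was at -0.42 (adjusted p = 0.0958). The 166.9-kb, 463.5-kb and 490.0-kb origins did not pass, the last with 3.70 and 2.75 in ctf19∆, against 4.59 and 4.72 in WT. No arm origin was called lower with TMM factors or DESeq2. TMM factors gave 0 lower and 0 higher arm origins (26.8% and 8.54% of all origins), and DESeq2 gave 0 and 1 (18.9% and 24.4%), the last being the 463.5-kb origin. With the Total signal as an offset 4 fell (55.5% of all origins), and ARS1529.5 was not called (-0.65, adjusted p = 0.0727).

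For comparison, the origins beside the centromere were low in ctf19∆ and the dbf4-Zn* strains. The origin at 337.3 kb had 2.79 and 1.52 in ctf19∆ and 2.70 and 2.57 in dbf4-Zn*1 cells, against 16.4 and 19.7 in WT. In fkh1∆ fkh2-dsm it had 19.5 and 22.5, above both WT libraries in 1 of the 2 and between them in the other. The difference between arm and centromere-side origins was not tested.

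In cells without the origin function of both forkhead proteins the arm origins stood in another order than in WT, with the 907.9-kb origin the highest and ARS1529.5 the lowest in each of the 4 libraries. In fkh1∆ fkh2-dsm 8 of 10 fell and 1 rose, where 64% and 11% of all origins did. In ctf19∆ fkh1∆ fkh2-dsm 8 fell and 1 rose (75.6% and 10.4% of all origins). ARS1529.5 had the largest fall on the arms in both strains. It had 0.720 and 0 in fkh1∆ fkh2-dsm cells and 1.31 and 0.941 in the triple mutant, against 16.8 and 20.0 in WT. The 2 libraries of fkh1∆ fkh2-dsm held 14 and 0 counts there, and 3 counts in the empty one would be a signal of 0.257, which covers counting error only. A read is counted in each bin it overlaps, so 3 reads there would give a higher signal than this. The log2 fold changes were -5.36 ± 0.34 (adjusted p = 5.92e-15) and -3.97 ± 0.25 (adjusted p = 1.41e-15), and the size of the first depends on how the empty window is treated.

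The origin that rose in both strains was the one at 907.9 kb between COT1 and FAA1. It had 9.72 and 10.5 in fkh1∆ fkh2-dsm cells and 10.9 and 10.2 in the triple mutant, against 6.06 and 4.84 in WT, with no overlap. The log2 fold changes were 0.87 ± 0.21 (adjusted p = 0.000383) and 0.94 ± 0.20 (adjusted p = 7.47e-05), and relative to the median of all origins 1.94 and 2.34. With the Total signal as an offset the value in fkh1∆ fkh2-dsm was 0.47 (adjusted p = 0.104), which ends the call there. In these 2 strains it was the strongest arm origin, ahead of the 463.5-kb origin, which had 5.19 and 8.75 in fkh1∆ fkh2-dsm cells and 8.11 and 8.66 in the triple mutant, against 6.88 and 7.70 in WT. The 463.5-kb origin did not pass the test (-0.09 ± 0.23 and 0.21 ± 0.21, adjusted p = 0.709 and 0.362), and both TMM factors (0.86 ± 0.23 and 1.06 ± 0.22) and DESeq2 (1.05 ± 0.22 and 1.58 ± 0.20) called it higher.

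The origins that were strongest in WT were among those that fell. ARS1511 had 5.66 and 3.43 in fkh1∆ fkh2-dsm cells and 5.48 and 4.59 in the triple mutant, against 22.4 and 29.2 in WT (-2.45 ± 0.18 and -2.34 ± 0.16). ARS1513.5 had 5.40 and 6.26 in fkh1∆ fkh2-dsm cells and 6.64 and 5.37 in the triple mutant, against 18.0 and 19.2 in WT (-1.69 ± 0.21 and -1.62 ± 0.20). Even so, ARS1513.5 was above ARS1511 in 3 of the 4 libraries of these strains, the reverse of WT. ARS1509 had 3.44 and 1.37 in fkh1∆ fkh2-dsm cells and 3.77 and 2.78 in the triple mutant, against 12.2 and 11.9 in WT (-2.23 ± 0.26 and -1.86 ± 0.23), with no overlap. ARS1506.5 had 1.39 and 3.43 in fkh1∆ fkh2-dsm cells and 1.91 and 3.14 in the triple mutant, against 9.09 and 11.3 in WT (-2.17 ± 0.29 and -2.05 ± 0.26). The 490.0-kb origin had 1.80 and 1.03 in fkh1∆ fkh2-dsm cells and 2.69 and 1.69 in the triple mutant, against 4.59 and 4.72 in WT (-1.65 ± 0.33 and -1.05 ± 0.27). Replicates of fkh1∆ fkh2-dsm, the shallowest strain, differed by over 2 times at ARS1506.5, ARS1509, 166.9 kb and 227.7 kb, and both lay below both WT libraries at these origins. The part of depth in this spread was not tested.

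With the Total sum as library size the fall of ARS1529.5 in fkh1∆ fkh2-dsm was the only call in either strain. With TMM factors 8 arm origins fell and 2 rose in fkh1∆ fkh2-dsm (43.3% and 36% of all origins), and 7 and 2 in the triple mutant (52.4% and 25.6%). DESeq2 gave 7 and 2 in fkh1∆ fkh2-dsm (35.4% and 40.9%), and 5 and 2 in the triple mutant (37.2% and 40.2%). The median over the arm origins was -1.99 in fkh1∆ fkh2-dsm cells, against -1.07 over all origins, and -1.74 in the triple mutant, against -1.41.

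**Figure D2:**
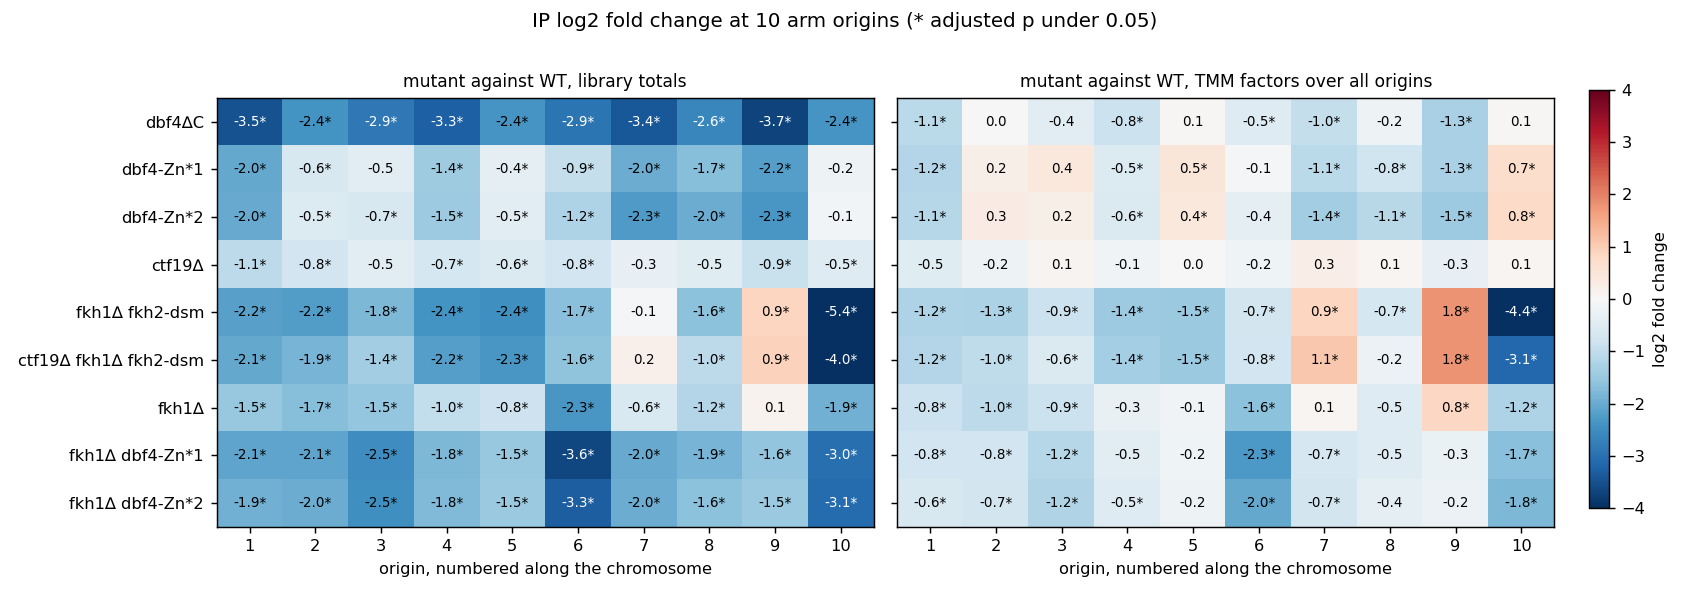
IP log2 fold change of each mutant (rows) against WT at the 10 arm origins, numbered from the left end of the chromosome (columns), with library totals (left) and with TMM factors over all 164 origins (right). An asterisk marks an adjusted p under 0.05. Origin 9 (907.9 kb) is the sole origin that rose with library totals, in fkh1∆ fkh2-dsm and ctf19∆ fkh1∆ fkh2-dsm, and with TMM factors origins 5 and 10 rose in dbf4-Zn*1 and dbf4-Zn*2.

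The triple mutant was also compared directly with ctf19∆ and with fkh1∆ fkh2-dsm. Relative to ctf19∆, 7 of 10 arm origins fell and 2 rose in ctf19∆ fkh1∆ fkh2-dsm (43.9% and 26.2% of all origins). The 907.9-kb origin rose (1.82 ± 0.21, adjusted p = 7.60e-09), with 10.9 and 10.2 in the triple mutant, against 3.29 and 2.46 in ctf19∆. ARS1529.5 had the largest fall (-3.46 ± 0.25, adjusted p = 2.33e-13), and ARS1511 (-1.77 ± 0.17), ARS1509 (-1.09 ± 0.23), ARS1506.5 (-0.99 ± 0.27) and ARS1513.5 (-0.86 ± 0.20) also fell. Without ctf19∆ fkh1∆ fkh2-dsm replicate 1, ARS1506.5 was at -0.64 (adjusted p = 0.0741). The rise at 463.5 kb (0.52 ± 0.22, adjusted p = 0.0340) was 0.45 (adjusted p = 0.170) without ctf19∆ replicate 1 and also missed the threshold without either triple-mutant library, at 0.57 (adjusted p = 0.0506) and 0.47 (adjusted p = 0.0915). Relative to fkh1∆ fkh2-dsm, 0 arm origins fell and 1 rose (22.6% and 8.54% of all origins). The one that rose was ARS1529.5 (1.39 ± 0.48, adjusted p = 0.0250), where one of the fkh1∆ fkh2-dsm libraries is empty, and without that library (replicate 2) the value was 0.70 (adjusted p = 0.215). Without ctf19∆ fkh1∆ fkh2-dsm replicate 1 it was 1.08 (adjusted p = 0.206). The number of arm origins called higher was 2 without fkh1∆ fkh2-dsm replicate 1 and 3 without its replicate 2. Against ctf19∆, TMM factors gave 7 lower and 2 higher (36% and 34.1% of all origins), and DESeq2 gave 4 and 2 (29.3% and 45.1%), with ARS1506.5, ARS1513.5 and the 166.9-kb origin no longer called. Against fkh1∆ fkh2-dsm, TMM factors gave 0 and 0 (23.2% and 5.49%), and DESeq2 gave 0 and 2 (21.3% and 31.7%). With the Total offset the rise of ARS1529.5 was 0.86 (adjusted p = 0.287).

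In cells lacking FKH1 alone most arm origins were lower than in WT, and the 907.9-kb origin was not called. In fkh1∆ 9 of 10 fell and 0 rose (64.6% and 4.27% of all origins), with an arm median of -1.36, against -0.60 over all origins. ARS1513.5 had the largest fall, with 3.61 and 3.89 in fkh1∆, against 18.0 and 19.2 in WT (-2.32 ± 0.19, adjusted p = 8.02e-12). ARS1529.5 had 4.65 and 5.13, against 16.8 and 20.0 in WT (-1.91 ± 0.19), and ARS1509 had 3.23 and 4.25, against 12.2 and 11.9 in WT (-1.72 ± 0.21). ARS1511 kept more of its signal, with 14.3 and 14.8, against 22.4 and 29.2 in WT (-0.82 ± 0.15). ARS1506.5 had 3.72 and 3.25, against 9.09 and 11.3 in WT (-1.53 ± 0.24), and the 490.0-kb origin had 1.70 and 2.53, against 4.59 and 4.72 in WT (-1.18 ± 0.26). The 907.9-kb origin had 6.39 and 5.69 in fkh1∆, against 6.06 and 4.84 in WT, which overlap (0.14 ± 0.19, adjusted p = 0.541). The fall at 463.5 kb (-0.60 ± 0.21) became -0.52 (adjusted p = 0.0733) without WT replicate 2 and -0.56 (adjusted p = 0.0648) without fkh1∆ replicate 2.

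With TMM factors fkh1∆ had 5 arm origins lower and 1 higher (20.7% and 30.5% of all origins), and with DESeq2 5 and 1 (16.5% and 39%). The one higher in both was the 907.9-kb origin, by 0.81 ± 0.20 with TMM factors and 0.95 ± 0.20 with DESeq2. With the Total signal as an offset 5 arm origins fell in fkh1∆ (30.5% of all origins). ARS1513.5 was called lower with TMM factors and DESeq2, at -1.63 ± 0.17 with TMM factors and -1.50 ± 0.17 with DESeq2.

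When FKH1 was deleted in the dbf4-Zn* strains, every arm origin was lower than in WT, ARS1529.5 and ARS1511 included. Against WT, 10 of 10 fell and 0 rose in fkh1∆ dbf4-Zn*1 (79.3% and 4.88% of all origins), and 10 and 0 in fkh1∆ dbf4-Zn*2 (77.4% and 8.54%). ARS1513.5 had the largest fall, with 1.53 and 1.48 in fkh1∆ dbf4-Zn*1 cells and 1.95 and 1.82 in fkh1∆ dbf4-Zn*2 cells, against 18.0 and 19.2 in WT (-3.63 ± 0.20 and -3.30 ± 0.20). ARS1529.5 had 2.31 and 2.20 in fkh1∆ dbf4-Zn*1 cells and 2.03 and 2.30 in fkh1∆ dbf4-Zn*2 cells, against 16.8 and 20.0 in WT (-3.02 ± 0.20 and -3.08 ± 0.20). ARS1511 had the smallest fall among the named origins, with 9.20 and 8.82 in fkh1∆ dbf4-Zn*1 cells and 9.22 and 9.16 in fkh1∆ dbf4-Zn*2 cells, against 22.4 and 29.2 in WT (-1.51 ± 0.15 and -1.48 ± 0.15). ARS1506.5 had 2.22 and 2.49 in fkh1∆ dbf4-Zn*1 cells and 2.53 and 2.87 in fkh1∆ dbf4-Zn*2 cells, against 9.09 and 11.3 in WT (-2.10 ± 0.23 and -1.91 ± 0.23), and ARS1509 had 2.78 and 2.86 in fkh1∆ dbf4-Zn*1 cells and 3.04 and 3.04 in fkh1∆ dbf4-Zn*2 cells, against 12.2 and 11.9 in WT (-2.10 ± 0.21 and -1.99 ± 0.21). The 490.0-kb origin had 1.16 and 1.38 in fkh1∆ dbf4-Zn*1 cells and 1.59 and 1.39 in fkh1∆ dbf4-Zn*2 cells, against 4.59 and 4.72 in WT (-1.86 ± 0.25 and -1.64 ± 0.25). In all these windows every double-mutant library lay below both WT libraries. TMM factors gave 6 lower and 0 higher in fkh1∆ dbf4-Zn*1 (34.8% and 36.6%), and 7 and 0 in fkh1∆ dbf4-Zn*2 (34.8% and 37.8%). DESeq2 gave 7 and 0 (35.4% and 39.6%) in the first strain, and 7 and 0 (34.8% and 39%) in the other.

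Against the parent allele the same 5 origins fell in both backgrounds, namely ARS1509, the 166.9-kb origin, ARS1511, ARS1513.5 and ARS1529.5. 5 fell and 1 rose in fkh1∆ dbf4-Zn*1 against dbf4-Zn*1 (33.5% and 32.9% of all origins), and 5 and 1 in fkh1∆ dbf4-Zn*2 against dbf4-Zn*2 (32.3% and 32.9%). The largest falls were at ARS1529.5, with 2.31 and 2.20 in fkh1∆ dbf4-Zn*1 cells, against 16.3 and 15.8 in dbf4-Zn*1 (-2.83 ± 0.20, adjusted p = 1.55e-13), and 2.03 and 2.30 in fkh1∆ dbf4-Zn*2 cells, against 16.2 and 17.4 in dbf4-Zn*2 (-2.95 ± 0.20, adjusted p = 3.78e-14). The log2 fold changes in the 2 backgrounds were -2.68 ± 0.20 and -2.06 ± 0.19 at ARS1513.5, -1.12 ± 0.14 and -1.02 ± 0.14 at ARS1511, and -1.45 ± 0.21 and -1.45 ± 0.21 at ARS1509. The 907.9-kb origin rose. It had 2.07 and 1.60 in fkh1∆ dbf4-Zn*1 cells, against 1.18 and 1.23 in dbf4-Zn*1 (0.60 ± 0.21, adjusted p = 0.0125), and 1.82 and 2.10 in fkh1∆ dbf4-Zn*2 cells, against 1.19 and 0.933 in dbf4-Zn*2 (0.85 ± 0.21, adjusted p = 0.000662). The first of these 2 rises was 0.57 (adjusted p = 0.0822) without dbf4-Zn*1 replicate 1 and 0.41 (adjusted p = 0.168) without fkh1∆ dbf4-Zn*1 replicate 1. ARS1506.5 and the 227.7-kb, 463.5-kb and 490.0-kb origins, all called lower in the parent strains, did not pass in either comparison. TMM factors gave 5 lower and 1 higher in dbf4-Zn*1 (23.8% and 51.8% of all origins), and DESeq2 gave 5 and 1 (30.5% and 37.8%). In the dbf4-Zn*2 background TMM factors gave 5 and 3 (22% and 50.6%), which adds the 463.5-kb and 490.0-kb origins to those higher, and DESeq2 gave 5 and 1 (29.9% and 40.2%). The 5 falls were called under both scalings in both backgrounds. With the Total offset the rise at 907.9 kb was 0.36 (adjusted p = 0.232) and 0.46 (adjusted p = 0.129), called in neither.

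Whether an effect differs between backgrounds was tested by an interaction. In each, the change against WT also moves the BrdU cassette from leu2 to ura3, and the change in the other background does not. The fkh1 deletion also carries KANMX in DBF4 cells and URA3MX in dbf4-Zn* cells. A difference between backgrounds cannot be told apart from these differences in construction. For fkh1∆ in dbf4-Zn*1 against fkh1∆ in DBF4 cells, 2 arm origins had a higher and 1 a lower effect (44.5% and 5.49% of all origins). For dbf4-Zn*2 the numbers were 4 and 1 (50.6% and 5.49%). ARS1529.5 was the one with a lower effect in both, -0.92 ± 0.27 (adjusted p = 0.00475) in dbf4-Zn*1 and -1.04 ± 0.27 (adjusted p = 0.00143) in dbf4-Zn*2. The fkh1∆ log2 fold change of ARS1529.5 was -2.83 ± 0.20 in dbf4-Zn*1 cells and -2.95 ± 0.20 in dbf4-Zn*2 cells, against -1.91 ± 0.19 in DBF4 cells. ARS1506.5 had the highest, 1.47 ± 0.33 (adjusted p = 0.000589) and 1.63 ± 0.33 (adjusted p = 0.000156). With TMM factors both origins passed in both alleles, and with DESeq2 all but ARS1506.5 in dbf4-Zn*1 (0.79 ± 0.37, adjusted p = 0.0636) did. With the Total signal as an offset neither was called, ARS1529.5 at -0.81 (adjusted p = 0.20) and -0.90 (adjusted p = 0.161) and ARS1506.5 at 0.96 (adjusted p = 0.120) and 0.91 (adjusted p = 0.142), and with the Total sum no interaction was called. Over the arm origins TMM factors gave 2 lower and 1 higher effects with dbf4-Zn*1 (7.32% and 32.3% of all origins) and 2 and 2 with dbf4-Zn*2 (9.15% and 34.8%). DESeq2 gave 4 and 0 with dbf4-Zn*1 (31.1% and 14.6%) and 3 and 1 with dbf4-Zn*2 (21.3% and 18.9%). In dbf4-Zn*1 the number of arm origins with a higher effect was 1 without WT replicate 1 or 2, fkh1∆ replicate 1, dbf4-Zn*1 replicate 1 or fkh1∆ dbf4-Zn*1 replicate 2. For ctf19∆ in fkh1∆ fkh2-dsm against ctf19∆ in FKH1 FKH2 cells, 9 arm origins had a higher and 0 a lower effect (57.3% and 4.88% of all origins), ARS1529.5 with the highest value (1.90 ± 0.51, adjusted p = 0.00290). The median of this interaction over all origins was 0.83, near the arm median of 0.93, and with TMM factors 0 arm origins had a lower and 0 a higher effect (7.32% and 10.4% of all origins). DESeq2 gave 0 and 1 (7.93% and 15.9%). Leaving out single libraries left 3 to 8 of the 9, with 3 without WT replicate 2 or without ctf19∆ fkh1∆ fkh2-dsm replicate 1, and 5 without WT replicate 1, ctf19∆ replicate 1 or fkh1∆ fkh2-dsm replicate 1.

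The origins without a name in the panels can be followed through the remaining strains in the same way. The 166.9-kb origin in ATG34 had 1.70 and 2.05 in dbf4∆C cells, 9.83 and 10.2 in dbf4-Zn*1 cells, 9.19 and 8.15 in dbf4-Zn*2 cells and 9.69 and 10.3 in ctf19∆, against 14.3 and 12.9 in WT. In the strains with forkhead changes it had 2.21 and 6.17 in fkh1∆ fkh2-dsm cells, 6.35 and 3.80 in the triple mutant, 5.13 and 4.11 in fkh1∆, 2.43 and 2.42 in fkh1∆ dbf4-Zn*1 cells and 2.59 and 2.37 in fkh1∆ dbf4-Zn*2. Each of these last 10 libraries lay below every library of dbf4-Zn*1, dbf4-Zn*2, ctf19∆ and WT. The 227.7-kb origin had 1.64 and 1.24 in dbf4∆C cells, 5.32 and 4.82 in dbf4-Zn*1 cells, 4.46 and 5.66 in dbf4-Zn*2 cells and 7.98 and 8.95 in ctf19∆, against 13.1 and 14.5 in WT. It had 1.54 and 4.12 in fkh1∆ fkh2-dsm cells, 3.07 and 2.90 in the triple mutant, 6.39 and 7.76 in fkh1∆, 3.81 and 4.08 in fkh1∆ dbf4-Zn*1 cells and 3.64 and 4.40 in fkh1∆ dbf4-Zn*2. All 18 mutant libraries lay below both WT libraries there. The 463.5-kb origin had 0.557 and 0.827 in dbf4∆C cells, 5.62 and 6.15 in ctf19∆, 4.93 and 4.63 in fkh1∆, 1.80 and 1.82 in fkh1∆ dbf4-Zn*1 cells and 1.86 and 1.81 in fkh1∆ dbf4-Zn*2 cells, against 6.88 and 7.70 in WT, with no overlap between WT and any of them.

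Across the 9 mutants and with library totals, ARS1506.5, ARS1509, ARS1511, ARS1513.5 and the 227.7-kb origin were lower than WT in 9, the 490.0-kb origin in 8, ARS1529.5 and the 166.9-kb origin in 7, and the 463.5-kb and 907.9-kb origins in 6. The 907.9-kb origin was higher in 2. With TMM factors ARS1506.5 was lower in 8, ARS1513.5 and the 227.7-kb origin in 6, ARS1509 and the 166.9-kb origin in 5 and the 490.0-kb origin in 3, with none of these higher. ARS1529.5 was then lower in 5 and higher in 2, the 463.5-kb origin also lower in 5 and higher in 2, the 907.9-kb origin lower in 3 and higher in 3, and ARS1511 lower in 2 and higher in 2. These comparisons share the WT libraries, and those of the 490.0-kb origin are not independent of its choice, as stated above.

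Beyond the windows themselves, the shape of the signal around the arm origins differed among strains. The mean IP signal 2.5 to 5 kb from the origins, as a share of that in the windows, was 0.825 and 0.880 in the dbf4∆C libraries. It was 0.472 and 0.402 in dbf4-Zn*1 cells and 0.444 and 0.479 in dbf4-Zn*2 cells, against 0.157 and 0.113 in WT. The ctf19∆ libraries had 0.331 and 0.371, fkh1∆ fkh2-dsm 0.349 and 0.223, ctf19∆ fkh1∆ fkh2-dsm 0.334 and 0.427 and fkh1∆ 0.272 and 0.255. For fkh1∆ dbf4-Zn*1 the shares were 0.429 and 0.376 and for fkh1∆ dbf4-Zn*2 0.346 and 0.364. The share was above both WT values in all 18 mutant libraries, and in dbf4∆C the flanks were nearly as high as the windows. In dbf4∆C the median window was at 1.64, against a mean of 0.646 more than 10 kb from the origins. The peak rule found 4 of the 10 arm origins in its own profile. The share depends on the height of the window as well as on the width of the peak, and their parts were not tested. For dbf4∆C the study states a longer release than for the other strains, which cannot be told apart from the genotype. With 2 libraries against 2 an exact permutation test cannot go below p = 0.333, so no test is given.

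**Figure D3:**
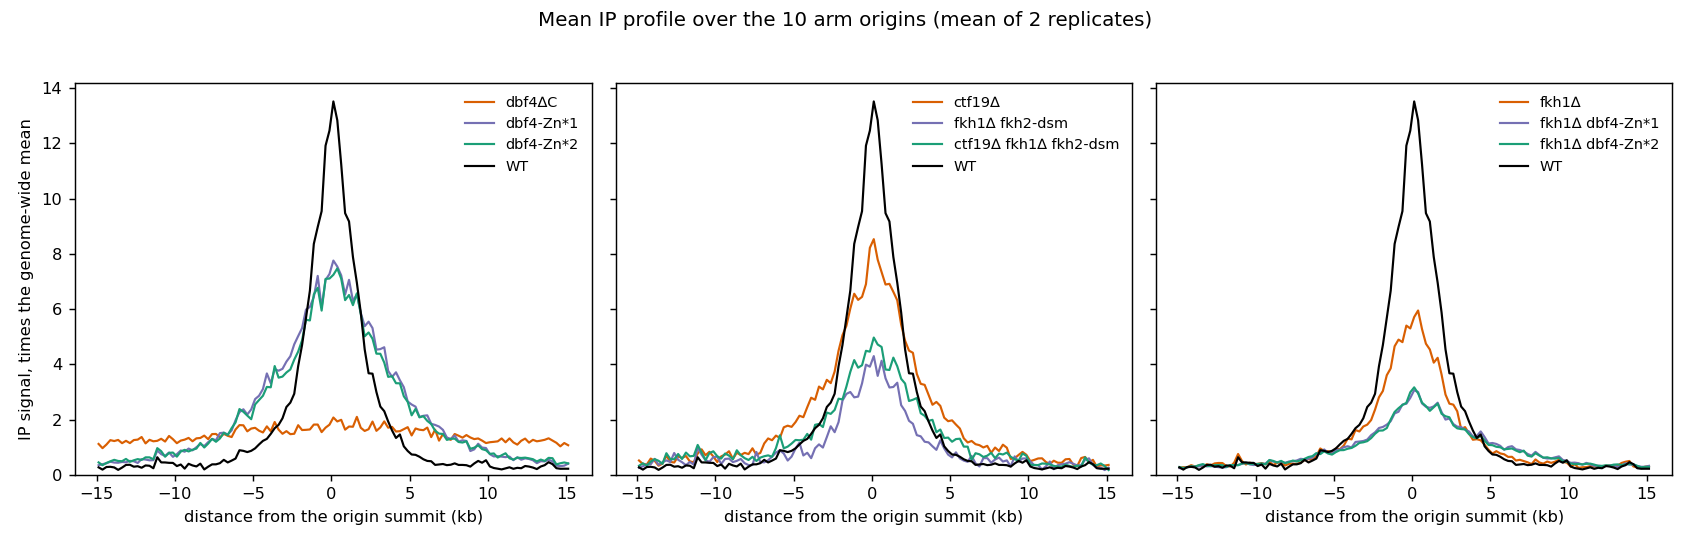
Mean IP profile over the 10 arm origins in each strain, in multiples of the genome-wide mean (y axis), by distance from the origin summit in kb (x axis); each line is the mean of 2 libraries. The dbf4∆C profile is low and nearly flat within 5 kb of the summit, while the WT profile is narrow. The median over the 10 origins of the signal at 2.5 to 5 kb, as a share of each window, was 0.157 and 0.113 in the 2 WT libraries.

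The mean level of each arm was also taken. The mean IP signal of the left arm, with 5 origins, was 1.63 and 1.62 in dbf4-Zn*1 cells, 1.38 and 1.36 in dbf4∆C cells and 0.684 and 0.691 in fkh1∆ fkh2-dsm cells, against 1.26 and 1.27 in WT. On the right arm it was 0.595 and 0.596 in dbf4-Zn*1 cells, 0.848 and 0.854 in the triple mutant and 0.387 and 0.370 in fkh1∆ dbf4-Zn*1 cells, against 0.635 and 0.625 in WT. Within the origin-poor stretch between the 490.0-kb and 907.9-kb origins, ctf19∆ fkh1∆ fkh2-dsm had 0.716 and 0.729 and fkh1∆ fkh2-dsm 0.571 and 0.547, against 0.334 and 0.348 in WT. That stretch was lowest in dbf4-Zn*1, with 0.229 and 0.261. The share of the 10 origins' summed signal that fell in the highest one was 31.4 and 30.3% in fkh1∆ dbf4-Zn*1 cells and 25.0 and 27.2% in dbf4-Zn*1 cells, against 18.2 and 21.4% in WT, each at ARS1511.

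Some arm positions reached the peak rule in single strains and not in the average of all. When the rule was applied to each strain's own mean profile, all 10 arm origins were found in ctf19∆, fkh1∆ and WT, 9 in fkh1∆ fkh2-dsm and ctf19∆ fkh1∆ fkh2-dsm, 7 in dbf4-Zn*1, dbf4-Zn*2 and both fkh1∆ dbf4-Zn* strains, and 4 in dbf4∆C. A further 19 positions were found more than 5 kb from these origins. Of these, 14 were found in ctf19∆ fkh1∆ fkh2-dsm, 7 in fkh1∆ fkh2-dsm and 5 in dbf4∆C, against 3 in WT and 1 to 3 in each other mutant. The numbers include positions in Ty reading frames and on the flank of an arm origin, which are named below. Genome-wide peak numbers were 231 in the triple mutant and 194 in fkh1∆ fkh2-dsm, against 187 in WT and 123 to 173 in the other mutants. The libraries of fkh1∆ fkh2-dsm are the shallowest, and the part of depth in these numbers was not tested. At 72.3 kb they had 0.771 and 4.89, so the call in that strain rests on replicate 2. Since the strain's own values chose the 19 positions, they are described without a test. Among those not beside an arm origin, the strongest was at 681.3 kb between the snoRNA gene SNR36 and GSP2, which encodes a Ran GTPase. It had 5.54 and 7.13 in the triple mutant, 5.04 and 6.00 in fkh1∆ fkh2-dsm cells and 1.03 and 1.40 in fkh1∆, against 0.511 and 0.571 in WT. Others of this kind lie between the 490.0-kb and 907.9-kb origins of the right arm. The position at 520.2 kb beside VAM3, a vacuolar syntaxin gene, had 2.69 and 3.02 in the triple mutant, against 0.434 and 0.199 in WT, and the one at 782.2 kb in HES1, an oxysterol-binding protein gene, had 2.83 and 3.37, against 0.398 and 0.224 in WT.

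In dbf4∆C a position at 265.8 kb in OPI10 had 3.61 and 3.52, against 0.215 and 0.372 in WT. It had 1.42 and 1.00 in dbf4-Zn*1 cells and 1.79 and 1.40 in dbf4-Zn*2 cells. The nearest arm origin is ARS1511 at 277.9 kb, the strongest in these strains, and its part in this signal was not tested. At 1048.0 kb, 5.4 kb from ARS1529.5 and between ATF1 and AMF1, the signal was 3.11 and 2.71 in dbf4∆C cells, 7.29 and 6.24 in dbf4-Zn*1 cells and 5.48 and 5.60 in dbf4-Zn*2 cells, against 0.677 and 0.621 in WT. This position lies on the flank of ARS1529.5, where the profiles of these strains are broad. Conversely, the position at 981.8 kb beside REV1, a translesion polymerase gene, had 0.747 and 0.831 in dbf4-Zn*1 cells and 0.472 and 0.579 in dbf4∆C cells, against 3.70 and 3.65 in WT, where it passed the rule. The position at 874.3 kb beside TIM18 had 0.598 and 0.862 in dbf4-Zn*1 cells, against 3.48 and 3.08 in WT. Positions in the Ty reading frames YOL103W-B, YOR142W-B and YOR192C-B hold repeated sequence and are not described further. At 161.5 kb, beside ADH1, the Total signal was raised in every strain (1.52 and 1.62 in dbf4∆C cells and 1.35 and 1.38 in WT), and its part in the IP signal there was not tested.

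**Figure D4:**
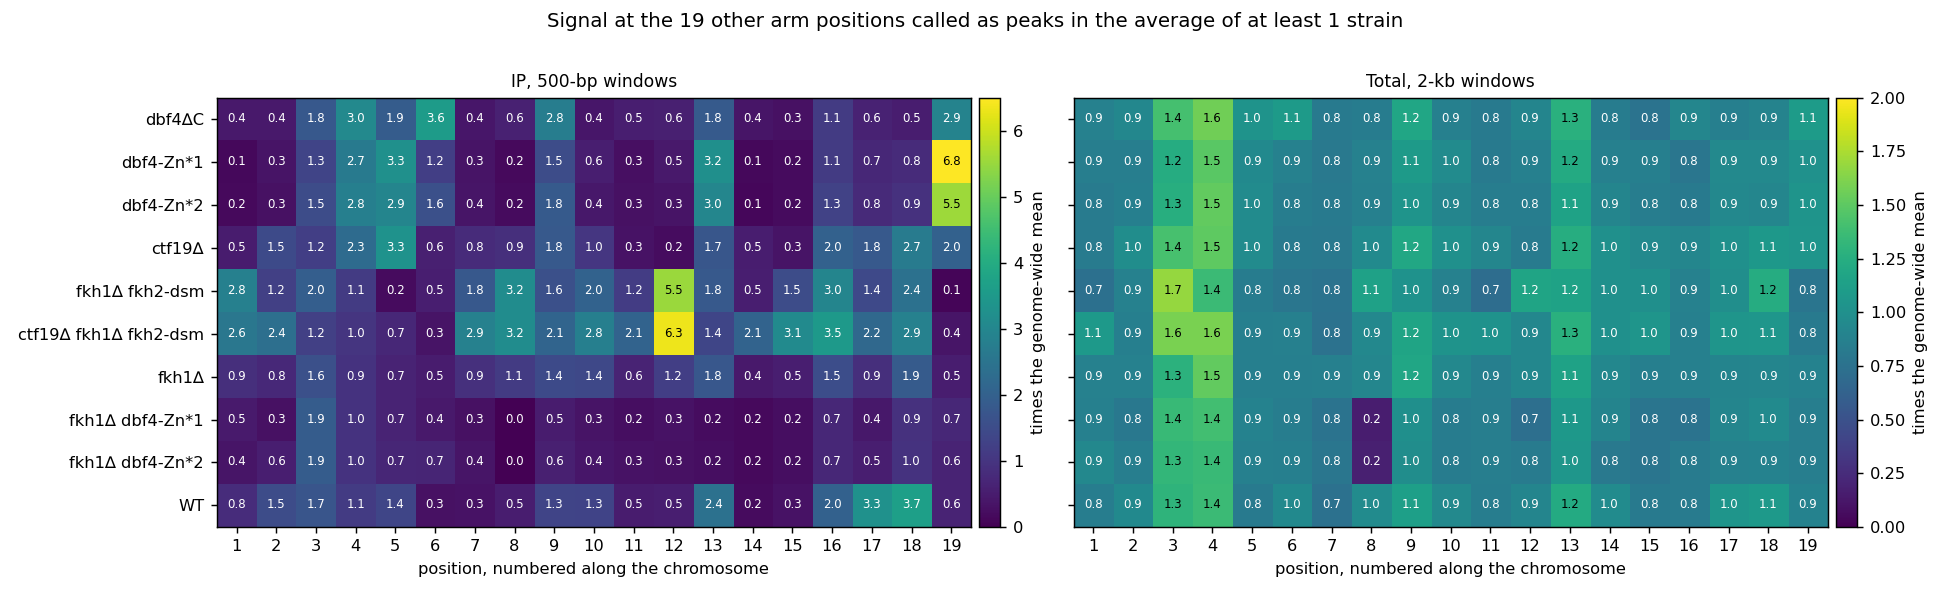
Mean signal of 2 libraries, in multiples of the genome-wide mean (color), in each strain (rows) at the 19 arm positions called in at least 1 strain's own profile and more than 5 kb from the 10 origins, numbered from the left end of the chromosome (columns), with IP on the left and Total on the right. Position 12 (681.3 kb) is the highest in fkh1∆ fkh2-dsm and ctf19∆ fkh1∆ fkh2-dsm, and position 19 (1048.0 kb) in dbf4-Zn*1 and dbf4-Zn*2.

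In the Total libraries of unselected DNA, stretches already copied at harvest count more than the rest. At the arm origins WT had 1.62 and 1.76 at ARS1511, the highest, and 0.912 and 0.958 at 907.9 kb, the lowest. The numbers of arm origins whose Total signal changed were 8 in dbf4∆C (63.4% of all origins), 2 in dbf4-Zn*1 (32.3%), 3 in dbf4-Zn*2 (38.4%) and 0 in ctf19∆ (17.7%), where 1 arm origin had an unadjusted edgeR p under 0.05 and TMM factors called 1 (20.7%). They were 9 in fkh1∆ fkh2-dsm (40.9%), 4 in the triple mutant (45.1%), 7 in fkh1∆ (36%), 7 in fkh1∆ dbf4-Zn*1 (43.3%) and 7 in fkh1∆ dbf4-Zn*2 (49.4%). With TMM factors and with DESeq2 the number in dbf4∆C was 2 (37.2%) and 2 (36.6%), and with DESeq2 that in fkh1∆ fkh2-dsm was 5 (41.5%). With library totals, 1 call was a rise and the others were falls.

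ARS1529.5 showed the widest spread in Total. It had 0.795 and 0.554 in fkh1∆ fkh2-dsm cells, against 1.39 and 1.41 in WT (-0.91 ± 0.13, adjusted p = 1.79e-07), the largest fall on the arms. In fkh1∆ dbf4-Zn*2 it had 0.796 and 0.893 (-0.73 ± 0.10) and in fkh1∆ dbf4-Zn*1 0.907 and 0.942 (-0.60 ± 0.10). In dbf4-Zn*1 it had 1.55 and 1.73 and in ctf19∆ 1.64 and 1.68, and neither passed (0.22 ± 0.10 and 0.24 ± 0.11). ARS1511 had 1.54 and 1.72 in dbf4-Zn*1 cells, which did not pass (-0.05 ± 0.10), and 1.01 and 0.997 in fkh1∆ fkh2-dsm (-0.75 ± 0.12), against 1.62 and 1.76 in WT. The 2 origins that changed in both dbf4-Zn* strains were ARS1506.5, with 0.985 and 1.16 in dbf4-Zn*1 cells and 0.980 and 1.05 in dbf4-Zn*2 cells, against 1.33 and 1.36 in WT (-0.32 ± 0.10 and -0.41 ± 0.10), and the 227.7-kb origin (-0.51 ± 0.10 and -0.42 ± 0.10). The single rise was at 907.9 kb in fkh1∆ fkh2-dsm, with 1.13 and 1.15, against 0.912 and 0.958 in WT (0.28 ± 0.12, adjusted p = 0.0480), and it did not pass with any 1 of these 4 libraries left out (0.25 to 0.32). In fkh1∆ the largest Total fall was at ARS1513.5, with 0.938 and 1.16, against 1.44 and 1.61 in WT (-0.54 ± 0.11, adjusted p = 0.000101), the origin whose IP signal also fell most in that strain. In dbf4∆C the largest Total change was at ARS1506.5, with 0.865 and 0.781, against 1.33 and 1.36 in WT (-0.72 ± 0.11, adjusted p = 3.53e-07).

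Leaving out single libraries changed the Total numbers by over 1.5 times in 4 strains. The number in dbf4∆C was 5 without WT replicate 2 or without dbf4∆C replicate 2, and that in dbf4-Zn*1 was 1 without either WT library or without dbf4-Zn*1 replicate 1. It was 3 in fkh1∆ fkh2-dsm without its replicate 1, which leaves the shallow replicate 2 alone, and 4 in fkh1∆ without fkh1∆ replicate 1.

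**Figure D5:**
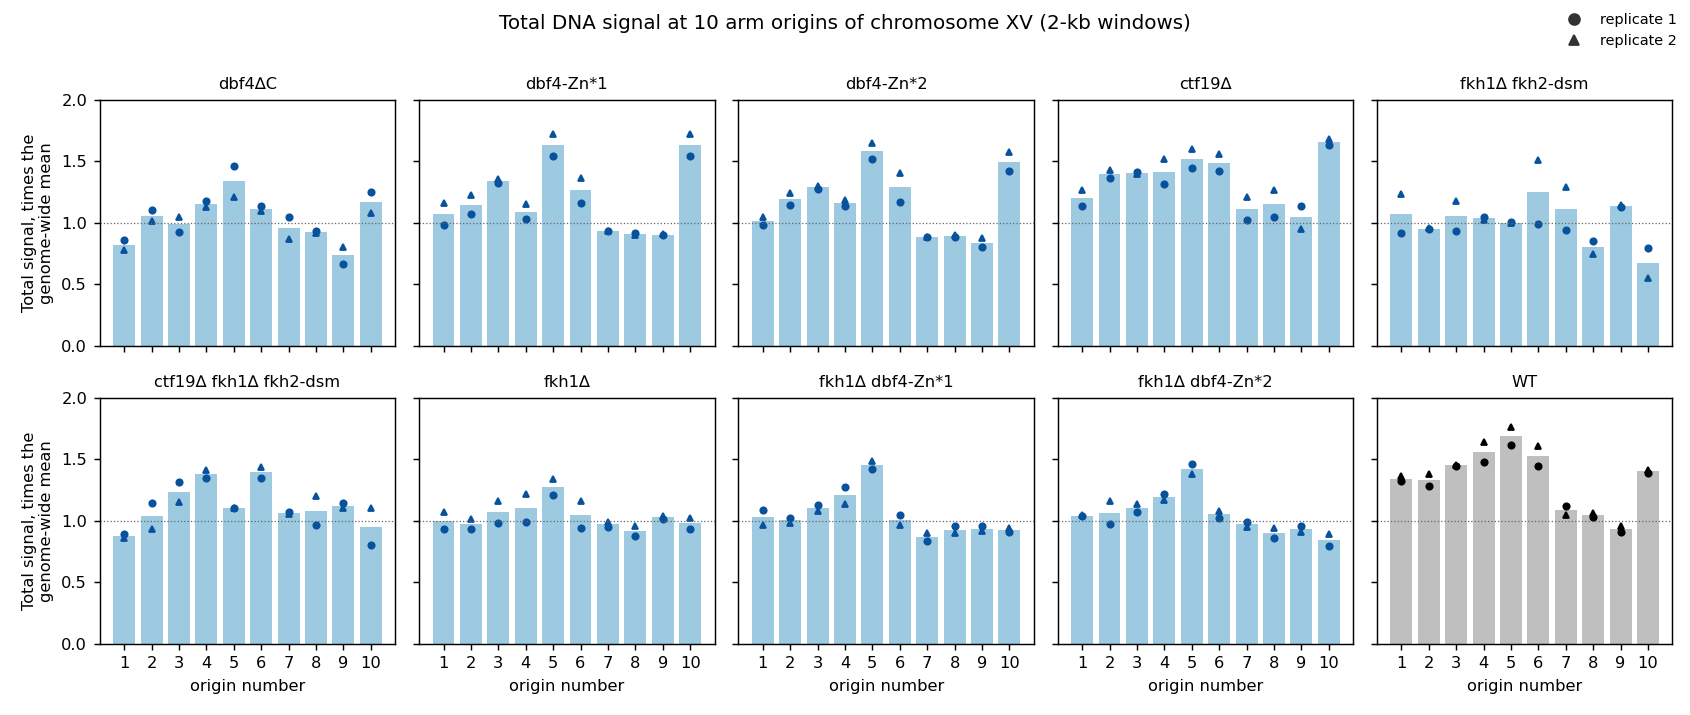
Total signal in the 2-kb windows at the 10 arm origins of each strain, in multiples of the genome-wide mean (y axis), with the origins numbered from the left end of the chromosome (x axis). Bars are means of 2 libraries, points the libraries and the dotted line the genome-wide mean. Origin 10 (ARS1529.5) is at 0.795 and 0.554 in the fkh1∆ fkh2-dsm libraries and at 1.55 and 1.73 in those of dbf4-Zn*1, against 1.39 and 1.41 in WT.

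In the ChIP-seq libraries of G1-arrested cells, ARS1511 was the arm origin with the highest Dbf4 signal. It had 2.86 and 2.08 times the library mean in FLAG-dbf4-aaHH and 2.86 and 1.69 in FLAG-Dbf4. Relative to the mean of the arms these are 6.40 and 5.32 in FLAG-dbf4-aaHH and 5.83 and 5.23 in FLAG-Dbf4, while the other 9 origins were between 0.411 and 1.29 of the arm mean in the 4 libraries. The log2 fold change at ARS1511 was 0.12 ± 0.31 (adjusted p = 0.998). No arm origin was called changed (0 of 10, and 0% of all 164). By edgeR, 0 arm origins had an unadjusted p under 0.05 with library totals, 2 with TMM factors and 1 with a library size that leaves out the ribosomal DNA. The largest difference was at ARS1513.5, 0.85 ± 0.59 on the log2 scale (unadjusted p = 0.15). Repeats of ribosomal DNA on chromosome XII took 50.4 to 66.8% of the ChIP counts, and no untagged or input library was used here, so enrichment at ARS1511 is relative to the arms alone. Median counts per window were between 39 and 80 over the 10 arm origins, which limits the changes that could be detected.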

How the data were processed

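DNA of BrdU-IP and Total libraries from 10 strains (2 replicates each) and 4 ChIP-seq libraries was sequenced. The authors aligned reads with Bowtie2 and processed them with SAMtools and bedtools, and versions and the genome build are not given in the sources used here. They deposited raw counts of reads overlapping each 50-bp bin, so a read spanning several bins is counted in each. For ChIP-seq they deposited aligned reads, whose midpoints were counted here per bin with no filter on mapping quality, the score the authors deposited with each read. Published fold changes or origin groups were not used. The 20 IP profiles, each divided by its mean, were averaged and median-smoothed over 1 kb, a step settled after profiles were seen. Of 172 peaks called, 2 in the ribosomal DNA and 6 at chromosome ends were left out, and 164 were kept.

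Window sums over 500 bp (IP and ChIP) or 2 kb (Total) were tested over all 164 origins with edgeR 4.0.16 (glmQLFit and glmQLFTest, library totals as library size, 1 fit per library type over all strains, Benjamini-Hochberg adjustment, threshold 0.05, two-sided), in 13 strain comparisons and 3 interactions. The fit had no replicate block. Alternatives were TMM factors, DESeq2 1.42.0 with its size factors, Total-based scalings, other windows, a filter on low counts, a replicate block and leaving out each library. The functions were checked on simulated counts. R 4.3.3, limma 3.58.1 (a dependency of edgeR), Python 3.11.15, numpy 2.4.6, scipy 1.17.1 and matplotlib 3.10.9 were used.

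Strains were taken from the labels. The arm origins, the comparisons and the named positions were chosen with earlier results of these data known. Every arm origin is named by the position of its highest bin, and by its ARS name where the study's panels label it. Full values are given for the labelled origins, the highest and lowest in WT and the largest rise and fall in each comparison, and values of the other origins were added after they were seen. Depth is given as the sum of bin counts, which exceeds the number of reads. Reads carry no molecular identifiers, so floors and intervals cover counting error only, and floors are in bin counts rather than reads.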

Additional observations from a re-analysis of the deposited data

Results flagged for a closer look

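The results below were picked out because the effect of 1 change differed between 2 backgrounds by a test of that difference, the interaction term of edgeR's quasi-likelihood fit. Values are differences between 2 log2 fold changes with their SE, and no explanation was tested. The 490.0-kb origin was just inside the minimum height in an average that includes WT. All these interactions use WT, so the values of that origin are not independent of its choice. The place of the BrdU cassette differs as described with the interactions above, and cannot be told apart from the effect of the background. The medians over all 164 origins were 0.56 for fkh1∆ with dbf4-Zn*1, 0.68 for fkh1∆ with dbf4-Zn*2 and 0.83 for ctf19∆ with fkh1∆ fkh2-dsm, so the positive values lie on the side to which most origins of the genome moved.

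For fkh1∆ in dbf4-Zn*1 cells against fkh1∆ in DBF4 cells, the difference was 1.47 ± 0.33 at ARS1506.5 (adjusted p = 0.000589), 1.01 ± 0.37 at the 490.0-kb origin (adjusted p = 0.0222) and -0.92 ± 0.27 at ARS1529.5 (adjusted p = 0.00475). The call at 490.0 kb was lost under 5 of the 8 settings that leave out 1 library, and with TMM factors (0.79, adjusted p = 0.0719). In dbf4-Zn*2 cells the difference was 1.63 ± 0.33 at ARS1506.5 (adjusted p = 0.000156), 1.52 ± 0.37 at the 490.0-kb origin (adjusted p = 0.000840) and -1.04 ± 0.27 at ARS1529.5 (adjusted p = 0.00143). It was 0.87 ± 0.30 at 463.5 kb (adjusted p = 0.0154), which became 0.79 (adjusted p = 0.0551) without WT replicate 2 and 0.67 (adjusted p = 0.125) without dbf4-Zn*2 replicate 1. At 907.9 kb it was 0.71 ± 0.29 (adjusted p = 0.0346), a call lost under 5 of the 8 settings. With TMM factors neither the 463.5-kb (adjusted p = 0.149) nor the 907.9-kb origin (adjusted p = 0.275) was called, and with the Total signal as an offset no arm origin was called in either background.

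For ctf19∆ in fkh1∆ fkh2-dsm cells against ctf19∆ in FKH1 FKH2 cells, all 9 values were positive. The difference was 1.90 ± 0.51 at ARS1529.5 (adjusted p = 0.00290), where 1 fkh1∆ fkh2-dsm library held 0 counts. It was 1.18 ± 0.40 at ARS1506.5 (adjusted p = 0.0152), 1.14 ± 0.35 at ARS1509 (adjusted p = 0.00820), 0.67 ± 0.25 at ARS1511 (adjusted p = 0.0226) and 0.83 ± 0.29 at ARS1513.5 (adjusted p = 0.0181). Among the unnamed origins it was 0.86 ± 0.38 at 166.9 kb (adjusted p = 0.0459), 0.90 ± 0.38 at 227.7 kb (adjusted p = 0.0407), 1.09 ± 0.44 at 490.0 kb (adjusted p = 0.0338) and 0.95 ± 0.30 at 907.9 kb (adjusted p = 0.00820). Of these 9 calls, the one at ARS1529.5 was made with each single library left out, and 0 were made with TMM factors.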

How the results depend on the processing

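The scaling of the IP libraries moved more calls than any other choice, and the cause was not tested. Filtering low counts changed no number of arm origins called, and calling origins as the highest within 10 kb left 10 arm origins. Minimum heights of 1.5 and 3 times the mean gave 13 and 9 arm origins, and an unsmoothed average profile, chosen after seeing the data, gave 17. Below, dbf4-Zn*1, dbf4-Zn*2 and ctf19∆ interactions are those of fkh1∆ with each zinc finger allele and of ctf19∆ with fkh1∆ fkh2-dsm, and comparisons are with WT unless another strain is named.

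With TMM factors, the numbers of arm origins lower in IP that moved by over 1.5 times were 5 in dbf4∆C, dbf4-Zn*1, dbf4-Zn*2 and fkh1∆, 6 in fkh1∆ dbf4-Zn*1, 0 in ctf19∆ and 2 in the dbf4-Zn*1 and dbf4-Zn*2 interactions. The numbers higher were 2 in dbf4-Zn*1, dbf4-Zn*2, fkh1∆ fkh2-dsm, the triple mutant and the dbf4-Zn*2 interaction, 1 in fkh1∆ and the dbf4-Zn*1 interaction, 3 in fkh1∆ dbf4-Zn*2 against dbf4-Zn*2, and 0 in the triple mutant against fkh1∆ fkh2-dsm and the ctf19∆ interaction. In Total, 2 changed in dbf4∆C and 1 in ctf19∆. With DESeq2, those lower were 4 in dbf4∆C, dbf4-Zn*2, the triple mutant against ctf19∆ and the dbf4-Zn*1 interaction, 3 in dbf4-Zn*1 and the dbf4-Zn*2 interaction, 5 in the triple mutant and fkh1∆, and 0 in ctf19∆. Those higher were 4 in dbf4-Zn*1 and dbf4-Zn*2, 2 in dbf4∆C, fkh1∆ fkh2-dsm and the triple mutant, both against WT and against fkh1∆ fkh2-dsm, 1 in ctf19∆, fkh1∆ and the dbf4-Zn*2 and ctf19∆ interactions, and 0 in the dbf4-Zn*1 interaction. In Total, DESeq2 gave 2 for dbf4∆C, 1 for dbf4-Zn*2 and 5 for fkh1∆ fkh2-dsm.

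With the Total sum as library size, 1 arm origin was lower in fkh1∆ fkh2-dsm, and 0 were lower or higher in all other comparisons and interactions. The median moved by -0.58 to 1.07 in the 9 mutants. With the Total signal as an offset, 4 were lower in ctf19∆, 5 in fkh1∆ and 0 in the dbf4-Zn*1 and dbf4-Zn*2 interactions. With it, 1 was higher in the triple mutant against ctf19∆ and in the ctf19∆ interaction, and 0 in fkh1∆ fkh2-dsm, fkh1∆ dbf4-Zn*1 against dbf4-Zn*1, fkh1∆ dbf4-Zn*2 against dbf4-Zn*2, the triple mutant against fkh1∆ fkh2-dsm and the dbf4-Zn*1 and dbf4-Zn*2 interactions. Windows of 1 kb gave 2 higher in the triple mutant, against WT and against fkh1∆ fkh2-dsm, 4 higher and 4 lower in the dbf4-Zn*1 interaction and 2 lower in the dbf4-Zn*2 interaction. Leaving the ribosomal DNA out of library sizes, an alternative chosen after seeing the data, gave 1 higher in the triple mutant against ctf19∆. Total windows of 500 bp gave 5 changed in dbf4∆C, 3 in fkh1∆ fkh2-dsm and 1 in dbf4-Zn*2 and in the triple mutant.

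Some log2 fold changes of single IP windows changed sign. With TMM factors they were 0.0246 at ARS1509, 0.0571 at ARS1511 and 0.0620 at ARS1529.5 in dbf4∆C cells. For dbf4-Zn*1 they were 0.23 at ARS1509, 0.43 at 166.9 kb, 0.49 at ARS1511 and 0.70 at ARS1529.5, and for dbf4-Zn*2 0.34, 0.22, 0.42 and 0.75 at the same windows. They were 0.0150 at ARS1511 and 0.0643 at ARS1529.5 in ctf19∆, 0.86 at 463.5 kb in fkh1∆ fkh2-dsm, 0.0835 there in fkh1∆ and -0.0183 at ARS1511 in the ctf19∆ interaction. With DESeq2 they were 0.33 at ARS1509, 0.35 at ARS1511, 0.10 at 490.0 kb and 0.37 at ARS1529.5 in dbf4∆C cells. For dbf4-Zn*1 they were 0.56 at ARS1509, 0.75 at 166.9 kb, 0.81 at ARS1511, 0.26 at ARS1513.5 and 1.02 at ARS1529.5, and for dbf4-Zn*2 0.61 at ARS1509, 0.49 at 166.9 kb, 0.68 at ARS1511 and 1.02 at ARS1529.5. In ctf19∆ they were 0.0572 at ARS1509, 0.11 at 227.7 kb, 0.26 at ARS1511, 0.0620 at ARS1513.5 and 0.32 at ARS1529.5. They were 1.05 at 463.5 kb in fkh1∆ fkh2-dsm, 0.30 at 490.0 kb in ctf19∆ fkh1∆ fkh2-dsm and 0.22 at 463.5 kb in fkh1∆. The Total sum gave 0.35 at 463.5 kb in fkh1∆ fkh2-dsm and -0.51 at 907.9 kb in fkh1∆, and the Total offset -0.0773 at 907.9 kb in fkh1∆ and -0.29 at 166.9 kb in the ctf19∆ interaction.

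Leaving out single libraries gave 0 to 1 higher for fkh1∆ dbf4-Zn*1 against dbf4-Zn*1, 1 to 2 for the triple mutant against ctf19∆, 0 to 3 against fkh1∆ fkh2-dsm, 1 to 2 for the dbf4-Zn*1 interaction and 3 to 8 for the ctf19∆ interaction. In Total it gave 5 to 8 for dbf4∆C, 1 to 3 for dbf4-Zn*1, 3 to 8 in fkh1∆ fkh2-dsm and 4 to 7 in fkh1∆. ARS1529.5 in dbf4-Zn*2 was between -0.25 and 0.0003065 (without WT replicate 2), and 463.5 kb in fkh1∆ fkh2-dsm between -0.48 and 0.27 (without its replicate 1), neither called in the full fit. A fit that leaves 1 library of a strain takes its spread from the other strains.

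The replicate numbers were not taken as pairs, since not every strain pair's correlation of deviations was over 0.1. In IP these ran from -0.22 to 0.187, with 6 of 45 over 0.1, and in Total from -0.194 to 0.571, with 12 of 45. The ratio of IP to Total sums was higher in replicate 1 than in replicate 2 in 8 of the 10 strains. With the replicate block all numbers of arm origins called stayed within 1.5 times of those without it, and the 166.9-kb origin in the ctf19∆ interaction was not called (0.86, adjusted p = 0.0541). Depth limits the IP windows of fkh1∆ fkh2-dsm, with medians of 55 and 44 counts, and the ChIP windows, with 39 to 80.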

Other observations

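A stretch of 1800 bp at AFI1 on the right arm (XV 566401 to 568200), noticed after the values were seen, was nearly empty in the Total libraries of both double mutants. Its Total signal was 0.0652 and 0.0946 in fkh1∆ dbf4-Zn*1 and 0.0704 and 0.0836 in fkh1∆ dbf4-Zn*2, against 0.944 and 0.960 in WT, and it was 0.754 to 1.35 over the other 16 Total libraries. The DNA 1 to 5 kb to either side had 0.814 to 0.890 in the 4 low libraries. Of its 36 bins, 21 held 0 counts in all 4. The labels of the double mutants name no change at this place, and its cause was not tested. The IP signal of the same stretch was 0.0633 and 0.0538 in fkh1∆ dbf4-Zn*1 and 0.0416 and 0.0425 in fkh1∆ dbf4-Zn*2, against 0.407 and 0.435 in WT. In fkh1∆ fkh2-dsm it was 2.77 and 2.69 and in ctf19∆ fkh1∆ fkh2-dsm 2.76 and 3.21.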
